A study of Mus musculus with 17 samples.

Results

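Neurotrophins and the ligands of the GDNF family are secreted proteins that keep neurons and glia alive, guide their growth and, in the gut, build the enteric nervous system. The 9 genes described here encode 2 neurotrophins (Bdnf and Ntf3), the neurotrophin receptors Ngfr, Ntrk2 and Ntrk3, the p75 co-receptor Sort1, and the ligand Gdnf with its receptor pair Gfra1 and Ret. They are 9 of the 23719 entries of the count table. They were chosen by name, as a family, and with the result known that Ngfr was much lower in GWI colons. The GWI against Control values of these genes are therefore given as description, and the adjusted p-values of the fit across all genes serve only to say which side of 0.05 a gene fell on.

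Colons of male C57BL/6 mice aged 32 to 34 weeks were compared. The 9 Control mice drank water, and the 8 GWI mice, a model of Gulf War illness, drank water with pyridostigmine bromide (PB), a reversible acetylcholinesterase inhibitor, at 2 mg/kg for 7 days and then recovered for 21 days. Tissue was taken at day 30 and its poly(A) RNA was sequenced, so every value is a sum over all the cell types of a piece of colon wall. Total counts ranged from 16744096 to 20741212 in Control and from 16293537 to 18389686 in GWI mice. Levels are given as CPM, each count scaled to the TMM-adjusted size of its library, and fold changes are log2, GWI against Control, with the standard error (SE).

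p75, the product of Ngfr, binds every neurotrophin and also their uncleaved precursors, and it marks neural crest cells and enteric glia and their progenitors. The Trk receptors are tyrosine kinases with a preferred ligand each, BDNF for TrkB (Ntrk2) and NT-3 for TrkC (Ntrk3). GDNF binds the membrane-anchored co-receptor GFRa1, and the complex activates the kinase RET, the route by which neural crest cells colonise the gut. Loss of RET signalling leaves the distal bowel without ganglia.

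Some libraries stood apart from the rest. Control replicates 6 and 7 had 2677 and 5695 counts of the ileal bile acid binding protein gene Fabp6 against 10 to 133 in the other mice. The summed level of the small intestine markers, led by Fabp2, was highest in Control replicate 9 (2944 CPM), followed by Control replicate 7 (2121 CPM), and Control replicate 6 (1378 CPM) was below GWI replicate 6 (1443 CPM). Control replicate 1 and GWI replicate 5 had 878 and 181 counts of the posterior gene Hoxb13, against 8 to 49 elsewhere. In Control replicate 9 the 10 most abundant genes took 23.1% of all counts, compared with 9.72% to 17.3% in the other Control mice. Control replicates 7, 8 and 9 also had the lowest summed neuron marker levels of the Control group, 95.1, 149 and 126 CPM, where the other 6 lay between 275 and 659 CPM.

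Per kilobase of exon, Sort1 and Ngfr were the most abundant of the 9 genes in Control colons. Sort1 stood at 38.3 ± 8.00 CPM per kb (SD, n = 9) and Ngfr at 21.1 ± 9.90 CPM per kb. Gfra1 (7.16 ± 3.50) and Ret (4.90 ± 3.34) followed and did not differ beyond their spread. Ntrk2 (1.28 ± 0.450) and Gdnf (0.979 ± 0.417) came next and also overlapped. Ntf3, Ntrk3 and Bdnf were the rarest at 0.485, 0.224 and 0.201 CPM per kb, with SDs of 0.189, 0.122 and 0.102. In GWI colons the distance between Ngfr and the GDNF receptors was gone: Ngfr was at 4.24 ± 1.98, Gfra1 at 4.13 ± 1.57 and Ret at 4.03 ± 1.95 CPM per kb (SD, n = 8). Lengths are the union of annotated exons, which overstates the transcript length of genes with many isoforms such as Ntrk3 (30.17 kb) and Ntrk2 (19.29 kb).

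All 9 genes passed the filter on low counts. Calls are those of the edgeR fit of all 17 mice unless another fit is named. In that fit, 1 of the 9 was called lower in GWI (Ngfr) at an adjusted p under 0.05, against 13.5% of the 14146 tested genes called lower. In the other direction 1 of the 9 was called higher (Sort1), against 13.4% of tested genes. Limma-voom with sample quality weights, cited below, called far more of the 14146 genes, 4180 lower and 3911 higher. The point estimate was negative for 7 of the 9 and for 7806 of the 14146 tested genes. The median fold change was -0.38, beside -0.06 over all tested genes. With muscle minus epithelium as a covariate, 6 of the 9 changed sign.

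**Figure D1:**
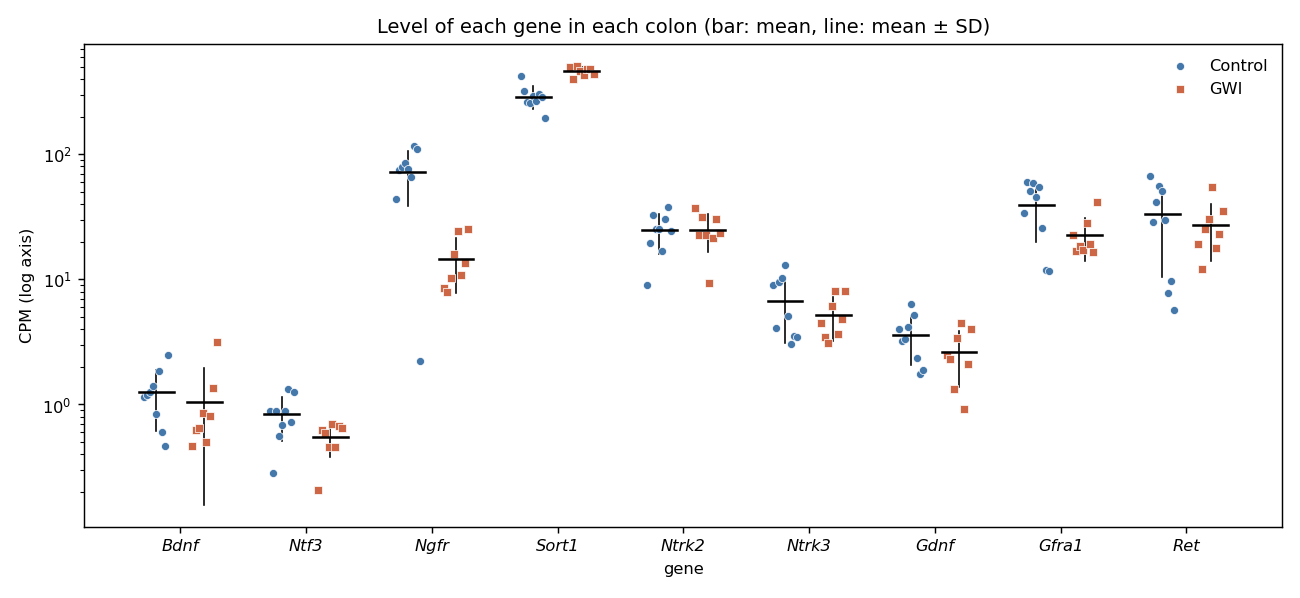
Level of each of the 9 genes in each colon, in CPM on a log axis, for 9 Control (circles) and 8 GWI mice (squares); bars are group means and vertical lines the mean ± SD. Ngfr separates the groups apart from 1 Control mouse at 2.23 CPM, and Sort1 is above the Control median of 287 CPM in all 8 GWI mice.

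The neurotrophin ligands were rare. Bdnf, best known as an activity-dependent survival factor, gave between 8 and 53 counts a mouse. Its level ran from 0.467 through a median of 1.19 to 2.51 CPM in Control and from 0.468 through 0.723 to 3.15 CPM in GWI colons. The highest value of either group was that of GWI replicate 8, and the groups overlapped throughout. Ntf3, the gene of NT-3, which supports enteric neurons and glia during development, gave 4 to 24 counts a mouse. It ran from 0.284 through 0.883 to 1.32 CPM in Control and from 0.208 through 0.607 to 0.694 CPM in GWI colons. All 8 GWI mice lay under the Control median, the fold change was -0.60 (SE 0.28), and Ntf3 was not called. At so few counts, counting error is a large part of the spread of Ntf3.

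Ngfr was the gene that differed most. Control colons ran from 2.23 through a median of 76.2 to 116 CPM and GWI colons from 7.93 through 12.2 to 25.3 CPM. In 8 of the 9 Control mice the level was at least 43.9 CPM, above every GWI mouse, whereas Control replicate 9 lay below every GWI mouse with 32 counts. The fold change was -2.32 (SE 0.46), and without Control replicate 9 it was -2.48 (SE 0.26), so that mouse widened the error more than it moved the estimate. Without Control replicates 6 and 7 it was -2.21 (SE 0.49), and without Control replicate 1 and GWI replicate 5 it was -2.53 (SE 0.49). Ngfr was called lower under each of these fits. In bulk tissue, fewer cells that express a gene and less RNA per cell cannot be told apart.

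Sort1 encodes sortilin, which sorts proteins in the Golgi and, at the surface, pairs with p75 to bind proneurotrophins. It went the other way. Control colons ran from 197 through 287 to 420 CPM and GWI colons from 399 through 470 to 510 CPM. In 7 of the 8 GWI mice Sort1 was above every Control mouse, and the remaining GWI mouse, replicate 2, was below only Control replicate 1. The fold change was 0.67 (SE 0.12), a ratio of 1.59. The RNAs of the 2 subunits of the proneurotrophin receptor complex thus had opposite signs in the same colons. Within groups the 2 genes were unrelated (Spearman rho -0.03 between deviations from group means). Whether the same cells make both RNAs cannot be read from bulk tissue. The ratio of Sort1 to the epithelial gene Epcam ran from 0.145 through 0.196 to 0.245 in Control and from 0.223 through 0.259 to 0.310 in GWI colons.

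The Trk receptor genes did not separate the groups. Ntrk2 ran from 9.10 through 25.3 to 38.0 CPM in Control and from 9.33 through 23.1 to 37.2 CPM in GWI colons, and its fold change was 0.01 (SE 0.25), with a 95% interval of -0.48 to 0.51. The lowest Ntrk2 of each group belonged to Control replicate 1 and GWI replicate 5, the mice with the most Hoxb13. Ntrk3 ran from 3.04 through 5.09 to 12.9 CPM in Control and from 3.11 through 4.63 to 8.03 CPM in GWI colons. Its fold change was -0.38 (SE 0.31), or -0.49 to -0.20 with 1 mouse left out, and limma-voom called it lower at -0.90.

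The edgeR fit called neither the ligand gene Gdnf nor its receptor genes Gfra1 and Ret, while limma-voom called Gdnf (-1.02) and Gfra1 (-1.23) lower and the DESeq2 Wald test Gfra1 (-0.79). Gdnf, made in the gut largely by mesenchyme and muscle, ran from 1.76 through 3.32 to 6.37 CPM in Control and from 0.917 through 2.41 to 4.48 CPM in GWI colons, with a fold change of -0.45 (SE 0.31). Gfra1 ran from 11.8 through 45.2 to 60.4 CPM in Control and from 16.6 through 18.8 to 41.4 CPM in GWI colons. All 8 GWI mice lay under the Control median of Gfra1, yet Control replicates 8 and 9 were lower still, and the fold change was -0.79 (SE 0.32). Gfra1 passed the threshold when Control replicate 8, Control replicate 9 or GWI replicate 8 was left out (-0.92, -0.90 and -0.98). Ret ran from 5.65 through 30.0 to 67.6 CPM in Control, the largest ratio of highest to lowest value after that of Ngfr, and from 12.2 through 24.2 to 54.4 CPM in GWI colons, with a fold change of -0.28 (SE 0.43), or -0.50 to -0.086 with 1 mouse left out. With muscle minus epithelium as a covariate the estimates of Gdnf, Gfra1 and Ret were positive (0.55, 0.43 and 1.34).

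The 9 genes differed in how closely they ran with a cell type's markers between mice of a group. Correlations with members, markers and marker lists are Spearman's rho between deviations from group means of log2 CPM. The genes nearest to, or most like, a member were found by rho of log2 CPM itself over the 17 mice, which also holds the difference between the groups. All are descriptions, over mice whose library depth and tissue makeup bear on every gene. Ret, Ntrk3, Gdnf and Gfra1 moved together, with rho from 0.64 for Gdnf with Gfra1 to 0.86 for Ret with Ntrk3. The highest rho of Ngfr with another member was 0.30, with Gfra1, and the highest of any pair with Bdnf, Ntf3, Sort1 or Ntrk2 was 0.38, between Bdnf and Gfra1.

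Ret followed the enteric neurons in rank. Its rho was 0.95 with Elavl4, the neuronal RNA-binding protein gene, and 0.99 with the mean log2 level of 10 neuron markers. Nsg1, a neuronal endosome gene, was among the 2 genes most like Ret over the 17 mice, at 0.995. Ntrk3 was nearest to Kcnb2, a voltage-gated potassium channel gene, at 0.958, followed by Agap2 and Unc80, both at 0.946. The ratio of Ret to Elavl4 ran from 0.648, in Control replicate 9, through 1.86 to 2.41 in Control, a 3.72-fold span, and from 1.85 through 2.24 to 2.53 in GWI colons.

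Gfra1 followed the glia. Its rho with Sox10, the transcription factor that defines enteric glia, was 0.96, above its 0.61 with Elavl4. The genes nearest to Gfra1 were Acbd6 and Fam19a5, both at 0.961 over the 17 mice, a value shared with Olfml2a and Sox10. While Gfra1 itself varied 5.13-fold among Control mice, its ratio to Sox10 varied 1.93-fold, from 2.08 through 2.54 to 4.02, and in GWI colons the ratio lay between 2.45 and 3.63 with a median of 2.94. The co-receptor and its kinase were thus closest to different markers, and the ratio of Gfra1 to Ret was 1.24 in the median Control colon and 0.904 in the median GWI colon, with overlapping ranges.

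Within groups, the highest rho of Gdnf with a marker list was 0.83, with smooth muscle, and Ntrk2 ran against posterior Hox genes (-0.66), colon epithelium (-0.64) and smooth muscle (-0.64). The pericyte marker Rgs5 had a rho of 0.60 with Bdnf, -0.75 with Ntrk2 and -0.50 with Sort1. Sort1 had a rho of 0.44 with the epithelial marker Epcam. Over the 17 mice, with the difference between the groups left in, Gdnf was nearest to Nlgn2 and Col5a1 (0.939 and 0.929; within groups 0.855 and 0.900) and Ntrk2 to Pogk and Palmd (0.926 and 0.909). Ntf3 was nearest to Ddx3y and Spaca6 (0.875 and 0.865; within groups 0.701 and 0.760). Cant1 (0.968; within groups 0.870) was among the 2 genes nearest to Sort1, and Slc2a12 (0.804; within groups 0.657) among the 2 nearest to Bdnf.

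Ngfr did not follow the glia markers in the same way. Its rho with Sox10 was 0.28. Control replicates 7 and 8 had the highest Ngfr of all mice, 116 and 110 CPM, with Sox10 at 9.38 and 4.98 CPM, whereas the 5 Control mice with more than 15 CPM of Sox10 had 65.4 to 85.7 CPM of Ngfr. The ratio of Ngfr to Sox10 ran from 0.762 to 22.0 in Control and from 1.31 to 2.80 in GWI colons. Among the 8 GWI mice alone, Ngfr had a rho of 0.90 with Elavl4 and 0.86 with Ret, and among the 9 Control mice -0.37 and -0.10. The 8 tested genes most like Ngfr over the 17 mice, at 0.853 to 0.816, include Psmg3, Bcl7c, Ppm1m, Mir703, Selenow, Mtch1 and Efcc1, and none of the 8 is on a glia or neuron list used here. Within groups their rho with Ngfr ran from 0.382 (Selenow) to 0.765 (Bcl7c).

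**Figure D2:**
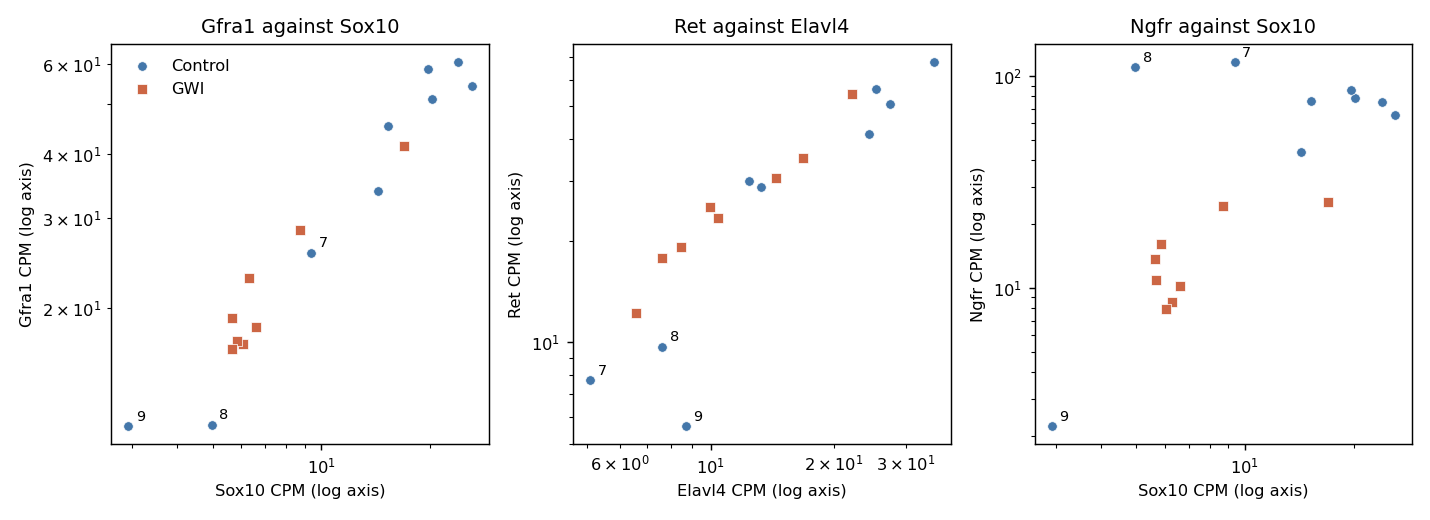
CPM on log axes of Gfra1 against Sox10, Ret against Elavl4 and Ngfr against Sox10 in 9 Control (circles) and 8 GWI (squares) colons, with Control replicates 7, 8 and 9 numbered. Gfra1 and Ret rise with their marker across both groups, and Control replicates 7 and 8 combine the highest Ngfr with Sox10 at 9.38 and 4.98 CPM.

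The glia list was not uniformly lower in GWI colons. Of 9 tested glia and Schwann cell markers, 4 were called lower (Cdh19 -1.29 and Gpm6b -0.91 among them) and 1 higher (Erbb3 0.91), with a median of -0.74. Erbb3 is also an epithelial gene and made up 71.1% of the summed level, so the sum was higher in GWI (428 to 549 CPM) than in most Control mice (237 to 487 CPM). Sox10 itself was not called (-0.98, SE 0.36, adjusted p = 0.0525 by edgeR). Leaving out 1 mouse gave 4 to 7 of the 9 called lower. The covariate of muscle minus epithelium left 1 called lower and 2 higher, with a median of -0.29. By limma-voom 6 were called lower and 1 higher, in a fit that called 4180 of 14146 genes lower and 3911 higher.

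The 10 neuron markers all had negative estimates, median -0.59, and 0 were called. Their edgeR adjusted p-values ran from 0.177 to 0.443, and leaving out any 1 mouse also called 0. Other fits moved them: limma-voom with sample quality weights called all 10 lower (median -1.04) and the small intestine covariate 2 lower, while the muscle covariate turned the median to 0.60. The limma-voom fit called 4180 of all 14146 tested genes lower. Their summed level ran from 95.1 through 297 to 659 CPM in Control and from 115 through 209 to 428 CPM in GWI colons, and Scg2 was the most abundant. No neuron marker was at 0 in any mouse. With the mean of the glia and neuron scores as a covariate, Ngfr stayed lower (-2.27, SE 0.49) and Ret turned to 0.77 (SE 0.19) and past the threshold on the higher side. Whether the neuron content had a part in the estimates of Ret, Ntrk3 and Gdnf was not tested. The covariate fit cannot decide it, as its score also holds glia markers, Erbb3 among them. Ret also had a rho of 0.99 with the neuron score within groups.

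Muscle and epithelium moved with the groups as well. Of 10 smooth muscle markers, 7 were called lower (Tagln -1.17, Myh11 -1.10, Synpo2 -1.06 and Mylk -0.91 among them), with a median of -0.91 and Myh11 the most abundant. Their sum ran from 3690 through 11584 to 23923 CPM in Control and from 3658 through 5142 to 11832 CPM in GWI colons. Leaving out 1 mouse gave 2 to 10 of the 10 called lower, and without both Control replicates 6 and 7 it was 2. Of 11 colon epithelium markers 5 were called higher (Vil1 0.64, Cdh1 0.62, Cdx2 0.38 and Epcam 0.28 among them), or 3 to 8 with 1 mouse left out, with a median of 0.40, and the sum, led by Car1, was 25628 to 42295 CPM in Control and 29980 to 47853 CPM in GWI colons. None of the muscle or epithelium markers was at 0 in any mouse. The covariate of muscle minus epithelium was the mean log2 CPM of these muscle markers less that of these epithelium markers. The markers' own values in that fit are therefore not informative. With muscle minus epithelium as a covariate, Ngfr was at -1.92 (SE 0.58) and Sort1 stayed past the threshold, while 6 members changed sign, all but Ngfr, Sort1 and Ntf3.

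Of 11 other neurotrophin ligands and receptors 9 were tested, and 2 were called lower and 2 higher, with a median of -0.26. The median turned to 0.36 with muscle minus epithelium as a covariate, where 1 was called lower and 2 higher. Leaving out 1 mouse gave 1 to 3 lower and 0 to 2 higher. Sorcs3, a sortilin relative of neurons, was at -1.40 (SE 0.42, adjusted p = 0.0203 by edgeR). Lingo1, a p75 partner in the receptor for myelin inhibitors, was at -1.11 (SE 0.38, adjusted p = 0.0394 by edgeR), a call kept in 7 of the 17 fits with 1 mouse left out. In the fits that left out no single mouse, Lingo1 ran from -1.64 to -0.11 and was called in 8 of 12. Under the replicate number as a block, 0 genes of the list were called lower. Sorl1, the sortilin relative of endosomes, was at 0.49 (SE 0.16), and Kidins220, a scaffold of Trk receptors, at 0.33 (SE 0.11), with the call kept in 12 and 4 of those 17 fits. Sort1 and Sorl1 of the sortilin family were thus both called higher, while Sorcs1 (-0.65) and Sorcs2 (-0.26) were not called by edgeR. Nradd, a p75 homologue, was at -0.27 and Rtn4r, the Nogo receptor, at 0.13, and neither was called by edgeR. By limma-voom Sorcs1 (-0.99) and Nradd (-0.40) were called lower. Ntf5 failed the filter.

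Of 11 other GDNF family genes 9 were tested, with 2 called lower (1 to 4 with 1 mouse left out), 0 higher and a median of -0.55. By limma-voom 7 of the 9 were called lower, with a median of -0.99, beside 4180 of all 14146 genes in that fit. Nrtn, the gene of neurturin, which maintains enteric neurons after birth, fell by 0.87 (SE 0.21, adjusted p = 0.00668 by edgeR), and Gas1, a GFRa-like protein that can bind RET, by 0.95 (SE 0.30, adjusted p = 0.0274 by edgeR). The neurturin co-receptor Gfra2 was at -0.55 (SE 0.33), and Gfra4, Sdc3 and Ncam1 at -1.06, -0.75 and -0.55 were not called by edgeR. Artn (-0.44), Gfra3 (-0.03) and Gdf15 (0.05) were not called by edgeR either, and Gfral and Pspn failed the filter. With muscle minus epithelium as a covariate, the list had 0 called lower and 2 higher (Sdc3 0.71 and Ncam1 0.73), with a median of 0.35, and Nrtn was at -0.15 and not called.

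**Figure D3:**
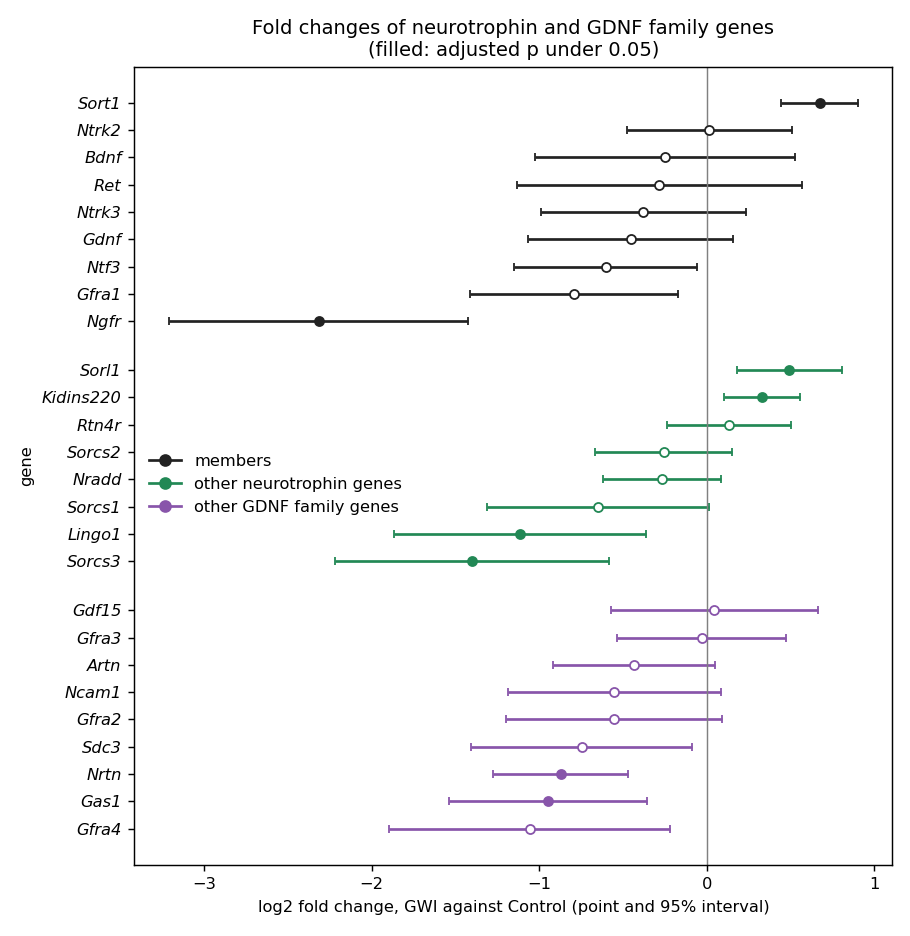
Log2 fold change of GWI against Control with its 95% interval for the 9 members and for 17 tested genes of the lists of other neurotrophin and other GDNF family genes, filled where the adjusted p was under 0.05. Ngfr at -2.32 lies furthest from 0, and Sort1, Sorl1 and Kidins220 are the filled points on the higher side.

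Of 10 tested genes of proneurotrophin cleavage, 3 were called higher, the convertases Pcsk5 (0.78), Furin (0.63) and Pcsk7 (0.38), and 1 lower, the protease Mmp7 (-1.46), whose call was kept in 4 of the 17 fits with 1 mouse left out. The median was -0.16, with 6 of the 10 estimates negative. Downstream of p75, 5 of 16 were called higher and 1 lower, with a median of 0.15. The shedding protease Adam17 was at 0.33 and the p75 adaptor Traf6 at 0.29, whereas the adaptor Bex3 was at -0.40.

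Of 18 Trk and RET adaptors 4 were called higher and 1 lower (1 to 5 and 0 to 1 with 1 mouse left out), with Crkl at 0.53, Dok4 at 0.63, Sh2b1 at 0.25 and Shc4 at -0.84. Of 14 genes that respond to ERK signalling 1 was called, Dusp6 at 0.66, against 0 to 4 with 1 mouse left out and 6 with the glia and neuron covariate, all higher. Of 8 tested neural crest progenitor genes 2 were called lower, Foxd3 (-1.28) and the endothelin receptor gene Ednrb (-0.82), with a median of -0.82, and 2 to 5 with 1 mouse left out. With the muscle covariate 0 were called lower and 1 higher, the median was 0.11, and Ednrb was at -0.29. With the same covariate the genes of proneurotrophin cleavage had 2 called higher and 0 lower, those downstream of p75 3 and 0, and the Trk and RET adaptors 6 and 0. The medians of these lists were then 0.24, 0.15 and 0.33. Pcsk7 (0.16), Adam17 (0.13), Traf6 (0.18), Bex3 (-0.36) and Dok4 (0.72) were not called in that fit, while Pcsk5 (0.96), Furin (0.98), Crkl (0.60) and Sh2b1 (0.35) were.

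Markers of other cell types were counted as well. Pericyte markers were called lower in 3 of 6 (Rgs5 -1.14, Abcc9 -0.95 and Kcnj8 -0.76), or in 1 to 3 with 1 mouse left out. Also called lower were 2 of 10 fibroblast markers (Dpt -0.76, Dcn -0.75), Gja1 (-0.51) of 6 interstitial cell of Cajal markers and Kdr (-0.74) of 6 endothelial markers (0 to 3 with 1 mouse left out). The covariate of muscle minus epithelium turned the pericyte, fibroblast and endothelial medians to 0.26, 0.28 and 0.28. In that fit 1 pericyte marker was called lower and 1 higher, 2 fibroblast markers higher, and 0 interstitial or endothelial markers were called. By limma-voom 4 pericyte, 6 fibroblast and 4 endothelial markers were called lower, beside 4180 of all 14146 genes in that fit. All 7 adipocyte markers had positive estimates, with a median of 1.08, and Cidec (0.99) was called higher (0 to 2 with 1 mouse left out); their sum ran from 36.7 to 276 CPM in Control and from 90.0 to 810 CPM in GWI colons. Of 6 mesothelium markers 0 were called, with edgeR adjusted p-values from 0.247 up. Small intestine markers were called lower in 2 of 7 (Fabp6 -4.40, Anpep -3.10), and without Control replicates 6 and 7 neither was called, with Fabp6 at -0.96 and Anpep at 0.22. Of posterior Hox genes 0 of 8 were called, the lowest edgeR adjusted p being 0.0566. Of the markers of lymphoid follicles, squamous epithelium and skeletal muscle, 4 of 9, 2 of 10 and 4 of 9 were tested, and Ckm alone (-1.06) was called.

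The genes lie on separate chromosomes, apart from Ntf3 and Ret, both on chromosome 6. In the GENCODE annotation of GRCm38, Ngfr (ENSMUSG00000000120.6) spans chr11:95568818-95587735 on the minus strand with 1 coding transcript, and its exons overlap those of no other gene. Sort1 (ENSMUSG00000068747.14) spans chr3:108284082-108361511 on the plus strand, Gfra1 (ENSMUSG00000025089.15) chr19:58235604-58455909 on the minus strand, and Ret (ENSMUSG00000030110.13) chr6:118151745-118197718 on the minus strand. Exons of Bdnf, Sort1 and Gfra1 overlap antisense exons over 14.41%, 4.47% and 7.6% of their length, and since the strand setting of the counting is not given in the sources used here, those reads cannot be told apart.

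Promoter sequences of RefSeq, 300 bases on GRCm38.p6, were held for 6 of the 9 genes. Those of Ngfr and Gfra1 are shown, as the 2 members with the lowest fold changes. They were searched on both strands for the GC box GGGCGG, found in 35.66% of 32851 promoters, and for the SOX core ACAAAG, found in 18.71%. The Ngfr promoter, chr11:95587649-95587948 on the minus strand, held 4 GC boxes, in capitals, and 0 SOX cores, at 71.7% GC. The Gfra1 promoter, chr19:58455349-58455648 on the minus strand, held 0 of either motif at 54.0% GC. A match is a description of letters and not of binding.
Ngfr: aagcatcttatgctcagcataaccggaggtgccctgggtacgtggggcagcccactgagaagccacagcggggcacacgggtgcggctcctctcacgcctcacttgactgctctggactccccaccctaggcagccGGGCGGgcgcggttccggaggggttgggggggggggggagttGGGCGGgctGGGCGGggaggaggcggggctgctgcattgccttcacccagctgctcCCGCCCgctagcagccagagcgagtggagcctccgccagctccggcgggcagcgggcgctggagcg
Gfra1: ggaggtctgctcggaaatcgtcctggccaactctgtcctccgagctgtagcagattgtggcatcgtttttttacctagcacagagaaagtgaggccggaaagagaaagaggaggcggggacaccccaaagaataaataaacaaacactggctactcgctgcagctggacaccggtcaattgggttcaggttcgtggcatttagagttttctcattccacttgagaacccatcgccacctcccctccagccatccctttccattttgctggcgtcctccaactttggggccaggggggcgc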

How the data were processed

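RNA of 17 mouse colons was measured, 9 Control and 8 GWI. After trimming (Trimmomatic 0.36) and alignment to GRCm38 (STAR 2.5.2b), the authors took unique gene hits from featureCounts and deposited raw counts per gene symbol, without normalization. The annotation release and strand setting are not given in the sources used here. All 17 columns matched a sample. The table has 23719 entries, of which 48 repeat a symbol, none of them among the 9 genes or the lists. Without molecular identifiers, counting error covers only part of the technical noise.

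Counts were filtered with filterByExpr (minimum count 10, minimum total 15), scaled by TMM and tested across all genes by the robust quasi-likelihood fit of edgeR 4.0.16 (glmQLFit, glmQLFTest) in R 4.3.3, with Benjamini-Hochberg adjustment over 14146 tested genes and 0.05 as the threshold. The SE is the size of the fold change over the square root of F, and intervals are normal 95% intervals from it. Log2 CPM used a prior count of 2. The fit was tested on simulated data. Alternatives used DESeq2 1.42.0, limma 3.58.1, other scalings, filters and covariates, a replicate block, and leaving out each mouse. The members and the lists were chosen with earlier results of these data known. Named genes were the members, the other ligands and receptors, at most 4 called genes of every other list by smallest p with the most abundant marker, and the genes most like a member (8 for Ngfr, 2 for each other). Some of these genes are not reported here. Positions and exon lengths come from GENCODE M21.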

Additional observations from a re-analysis of the deposited data

Results flagged for a closer look

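Within a group, 3 of the 18 sets of values (9 genes in 2 groups) had a mouse far from the others, measured as the gap to its neighbour over the range of the group on the log2 CPM scale. Chance flags about 1 in 20 groups. Ngfr in Control replicate 9 had a gap of 0.752 of the Control range, below the other 8 Control mice. Ntf3 in GWI replicate 1 had a gap of 0.626 on the low side, at 4 counts, where counting error is large. Ntrk2 in GWI replicate 5 had a gap of 0.606 on the low side.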

How the results depend on the processing

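Ngfr was called lower and Sort1 higher in all 30 other fits, from -2.63 to -1.92 and from 0.62 to 0.77. The threshold of the study's methods, an unadjusted p under 0.05 with an absolute log2 fold change over 1, left Ngfr alone, with 0 members higher, and 92 genes higher and 250 lower in all. By limma-voom with sample quality weights 3911 genes were higher and 4180 lower, and 4 members were lower (Ngfr, Gfra1, Gdnf and Ntrk3); by the DESeq2 Wald test 2 members were lower (Ngfr and Gfra1). With the glia and neuron covariate 2 members were higher (Sort1 and Ret). Leaving out 1 mouse gave 1472 to 2523 genes higher and 1309 to 2295 lower, 1 to 2 members lower and 1 higher; Ntf3 was the second without Control replicate 2 and Gfra1 without Control replicate 8, Control replicate 9 or GWI replicate 8. The cause of these shifts was not tested.

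With the replicate number as a block, without Control replicate 9, 1404 genes were higher and 814 lower, and Ngfr and Sort1 were again the members called. The prefixes shared by some sample descriptions, which no source used here defines, were not modelled. The numbers did not pair the mice: same-numbered mice correlated from -0.51 to 0.11, and 0 of 8 correlated best with their own number.

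Called list genes named in the report that kept the call in fewer than all 17 fits with 1 mouse left out: Epcam, Kidins220 and Mmp7 (4 fits), Myh11 (5), Abcc9 and Shc4 (6), Kcnj8 and Lingo1 (7), Cidec and Dok4 (8), Sh2b1 (11), Gas1, Sorl1 and Synpo2 (12), Kdr (13), Dusp6 (14) and Anpep (16). Nrtn, Pcsk7, Traf6, Bex3, Adam17, Gpm6b, Tagln, Cdx2, Gja1 and Dcn kept it in all 17 and lost it with the muscle covariate alone. Tagln and Cdx2 are among the markers that make up that covariate, so their loss of the call there is not informative. Sorcs3 kept it in all 17 and lost it with the replicate block. Foxd3 and Ednrb also kept it in all 17, and were called in 10 and 11 of the 13 other fits.

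Signs that changed, as log2 fold changes: muscle covariate, Bdnf 0.12, Ntrk2 -0.50, Ntrk3 0.49, Gdnf 0.55, Gfra1 0.43, Ret 1.34, Sorcs1 0.46, Nradd 0.11, Artn 0.030, Gfra2 0.74, Gfra4 0.35, Ncam1 0.73, Gas1 0.14, Sdc3 0.71, Shc4 0.16, Foxd3 0.14, Mylk 0.12, Synpo2 0.10, Myh11 0.59, Dpt 0.0015, Kcnj8 0.11, Abcc9 0.32, Kdr 0.087, Ckm 0.27; glia and neuron covariate, Ntrk2 -0.16, Ntrk3 0.14, Ret 0.77, Gfra2 0.18, Ncam1 0.068; small intestine covariate, Gfra3 0.14, Gdf15 -0.071; library size alone, Ntrk2 -9.2e-05; limma-voom, Ntrk2 -0.0033, Gdf15 -0.40; without Control replicates 6 and 7, chosen after seeing the data, Ntrk2 -0.0012, Gfra3 0.11, Gdf15 -0.13, Anpep 0.22. Without Control replicate 1 and GWI replicate 5, also chosen after seeing the data, 0 members changed sign. Leaving out 1 mouse kept the sign of Bdnf (-0.73 to -0.056), Ntf3 (-0.72 to -0.48), Ntrk3 (-0.49 to -0.20), Gdnf (-0.60 to -0.31), Gfra1 (-0.98 to -0.69) and Ret (-0.50 to -0.086), while Ntrk2 ran from -0.091 to 0.14, Gfra3 from -0.17 to 0.078 and Gdf15 from -0.075 to 0.20. Mylk, Synpo2 and Myh11 are among the markers that make up the muscle covariate, so their change of sign under it is not informative. The cause of the other changes was not tested.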
